A study of Mus musculus with 18 samples.

Results

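The p38 branch of the mitogen-activated protein kinase (MAPK) pathway was followed through 10 genes. They were the p38 kinases Mapk14, Mapk11, Mapk12 and Mapk13, the kinases that phosphorylate them, Map2k3, Map2k6 and Map2k4, the upstream kinase Map3k5, and the p38-activated kinases Mapkapk2 and Mapkapk3. The genes were found by symbol, and all 10 were among the 18264 genes of the expression table. mRNA was measured in cultured fibroblasts from the ventricles of newborn mice, in 18 libraries and 6 groups of 3. The knockdown arm held si-Foxm1+Ang-II cells (siRNA against the transcription factor Foxm1 together with the hormone angiotensin II), Ang-II cells (the hormone), si-Foxm1 cells (the siRNA) and si-NC cells (negative control siRNA). The overexpression arm held OE-Foxm1 cells and their control, OE-NC. The labels give no mouse strain, hormone dose, treatment time or vector, and are silent on whether the Ang-II group was given control siRNA as well. They do not say whether the replicates came from separate cultures either, so p-values measure the spread between these libraries, which may be technical.

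p38 kinases are switched on by stress, cytokines and hormones through a relay of 3 tiers, in which a MAP kinase kinase kinase activates a MAP kinase kinase, which phosphorylates p38 on a threonine and a tyrosine. Active p38 then phosphorylates transcription factors and the kinases Mapkapk2 and Mapkapk3, which stabilise inflammatory mRNAs and act on the actin cytoskeleton. In cardiac fibroblasts the p38 branch is known as a driver of the conversion to matrix-producing, contractile myofibroblasts. mRNA levels say nothing of phosphorylation, on which the activity of these kinases depends.

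The switch of each p38 kinase lies in a short loop whose codons are shown here, because it is what the 4 kinases share and what the MAP kinase kinases recognise. The windows are 30 bases of coding sequence from GENCODE M21 transcripts (GRCm38), 5′ to 3′, with the threonine, glycine and tyrosine codons in capitals.
Mapk14: gatgagatgACAGGCTACgtggctaccagg
Mapk11: gaggagatgACCGGATATgtggccacacgg
Mapk12: agtgagatgACAGGATATgtggtaacccgg
Mapk13: actgagatgACGGGCTATgtggtgacccgc
The 4 windows were equal at 21 to 25 of 30 bases in pairs, with the highest value for Mapk12 and Mapk13. The 3 MAP kinase kinases carry a loop of their own, in which the upstream kinases phosphorylate a serine and a threonine. Their windows are shown with the codons that run from that serine to that threonine in capitals, since Map2k3 and Map2k6 act on p38 while Map2k4 acts on both p38 and the JNK kinases.
Map2k3: gtggacTCTGTGGCAAAGACAatggatgct
Map2k6: gtcgacTCTGTTGCTAAAACGatcgatgcc
Map2k4: gtggacTCTATTGCCAAGACAagagatgct
Map2k3 was equal to Map2k4 at 25 of 30 bases and to Map2k6 at 23. Over whole transcripts, the longest stretch shared by a pair of p38 genes was 15 to 20 bases, by Map2k3 and Map2k6 23 bases, and by Mapkapk2 and Mapkapk3 27 bases. In the same annotation Mapk11 and Mapk12 are direct neighbours on chromosome 15, and Mapk14 overlaps a protein-coding gene model of the same strand on chromosome 17. Map2k4 overlaps the microRNA gene Mir744, and Mapkapk2 overlaps the models Gm25549 and Gm37084, also on the same strand. How fragments in these overlaps were counted is not given in the sources used here.

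Each library held 14988993 to 19343343 counted fragments, as recovered from the table, and the members drew between 10 fragments (Mapk13) and 4523 fragments (Mapkapk2) in a library. Over all genes Ang-II replicate 3 stood apart from its group, with a mean chi-square per gene of 5.09 and 5.52 against replicates 1 and 2, where the other pairs of libraries within a group had 1.69 to 2.88. Foxm1 itself stood at 3.03 to 3.55 FPKM (a fragment count corrected for gene length and library size) in si-Foxm1+Ang-II, 4.03 to 5.65 in Ang-II, 5.13 to 6.71 in si-Foxm1 and 9.64 to 10.4 in si-NC. It stood at 399 to 487 FPKM in OE-Foxm1, against 15.7 to 17.1 in OE-NC. Fibroblast markers were present, with 13 genes summing to 4367 to 5882 FPKM in a library. The 18 cardiomyocyte markers, such as Myh6 and Tnnt2, summed to 6819 to 7055 FPKM in si-Foxm1+Ang-II, 11730 to 12750 in Ang-II, 8774 to 9290 in si-Foxm1 and 15310 to 16480 in si-NC. In the other arm they summed to 10230 to 10740 FPKM in OE-Foxm1 and 9146 to 9674 in OE-NC. The 11 macrophage and leukocyte markers summed to 118 to 137.6 FPKM in si-Foxm1+Ang-II, 287.8 to 317.7 in Ang-II, 120.7 to 149.6 in si-Foxm1, 234.8 to 241.5 in si-NC, 255 to 287.9 in OE-Foxm1 and 175.5 to 195.1 in OE-NC. Lyz2 made up most of this sum, at 99.1 to 117.4 FPKM in si-Foxm1+Ang-II and 222.4 to 253.7 in OE-Foxm1. By the tests described below, 4 of 7 tested were higher and 2 lower (C1qa and C1qb) in OE-Foxm1 against OE-NC. Of all tested genes 27.1% were higher there and 28.0% lower. In Ang-II against si-NC 4 were higher and 1 lower (Mrc1), beside 15.2% and 29.2% of all tested genes. The 10 endothelial markers summed to 190.5 to 203.1 FPKM in si-Foxm1+Ang-II, 163.4 to 165.8 in Ang-II, 224.7 to 232.6 in si-Foxm1 and 194.7 to 197.2 in si-NC. They summed to 195.3 to 200.4 in OE-Foxm1 and 177.7 to 183.3 in OE-NC. For the 8 smooth muscle and pericyte markers these sums were, in the same order, 274.4 to 285.9, 294 to 324.6, 274.5 to 290.1, 308.1 to 321, 234.2 to 238.9 and 272.3 to 276.9 FPKM. None of the defining markers was at 0 throughout a group. These sums moved with the groups, so fewer cells of a type and less RNA per cell cannot be told apart, and the part of other cells in the results below was not tested.

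Mapk14, which encodes p38 alpha, the form present in most tissues, was the most abundant p38 mRNA in every library. On the FPKM scale, which corrects for gene length, it made up 68.6% to 74.7% of the summed p38 level over the 18 libraries. Mapk12, which encodes the muscle-enriched p38 gamma, made up 17.3% to 23.8%. Mapk11 (p38 beta) made up 4.82% to 8.22% and Mapk13 (p38 delta) 0.978% to 3.17%, and the order of the 4 forms was the same in all 18 libraries. Among their activators Map2k3 made up nearly all of the summed FPKM of Map2k3 and Map2k6, at 99.2% to 99.8%. This share rests in part on the gene lengths recovered from the table, 2177 bases for Map2k3 and 13337 for Map2k6. In fragments a library held 1970 to 2969 of Map2k3 and 28 to 105 of Map2k6. Whether these lengths match the transcripts expressed was not tested. Mapkapk2 made up 85.3% to 93.5% of the sum of Mapkapk2 and Mapkapk3. The sum of the p38 kinases was 37.8 ± 0.558 FPKM in si-Foxm1+Ang-II, 34.9 ± 0.891 in Ang-II, 42.3 ± 1.501 in si-Foxm1, 39.9 ± 0.730 in si-NC, 44.0 ± 0.105 in OE-Foxm1 and 41.0 ± 1.47 in OE-NC (SD, n = 3 each).

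**Figure D1:**
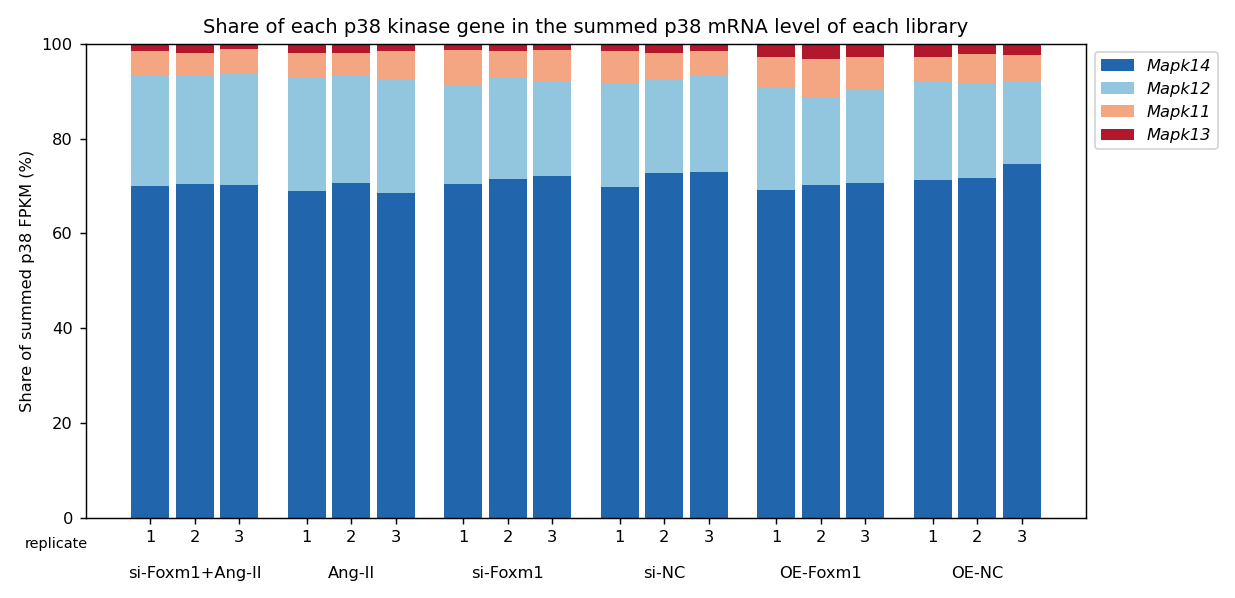
Share of Mapk14, Mapk12, Mapk11 and Mapk13 in the summed p38 FPKM (y axis, percent) of each of the 18 libraries (x axis, replicate number within each group, 1 bar per library). Mapk14 takes 68.6% to 74.7% of every bar and Mapk12 the next largest share, 17.3% to 23.8%.

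The shares shifted by a few points between groups. Mapk12 took 23.2% ± 0.440 of the p38 sum in si-Foxm1+Ang-II and 23.4% ± 0.565 in Ang-II, against 20.9% ± 0.884 in si-Foxm1 and 20.7% ± 1.16 in si-NC (SD, n = 3 each). No library with the hormone overlapped with those without it in this share, which is a ratio and does not itself say which of the 4 mRNAs changed. Tested gene by gene below, Mapk14 was called lower in both hormone comparisons and Mapk12 was called in neither. Mapk11 was called lower in si-Foxm1+Ang-II against si-Foxm1 only, and Mapk13 was under the minimum level. Mapk13 took 2.89% ± 0.248 in OE-Foxm1 and 2.45% ± 0.298 in OE-NC, and at most 1.91% in a library of the knockdown arm.

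**Figure D2:**
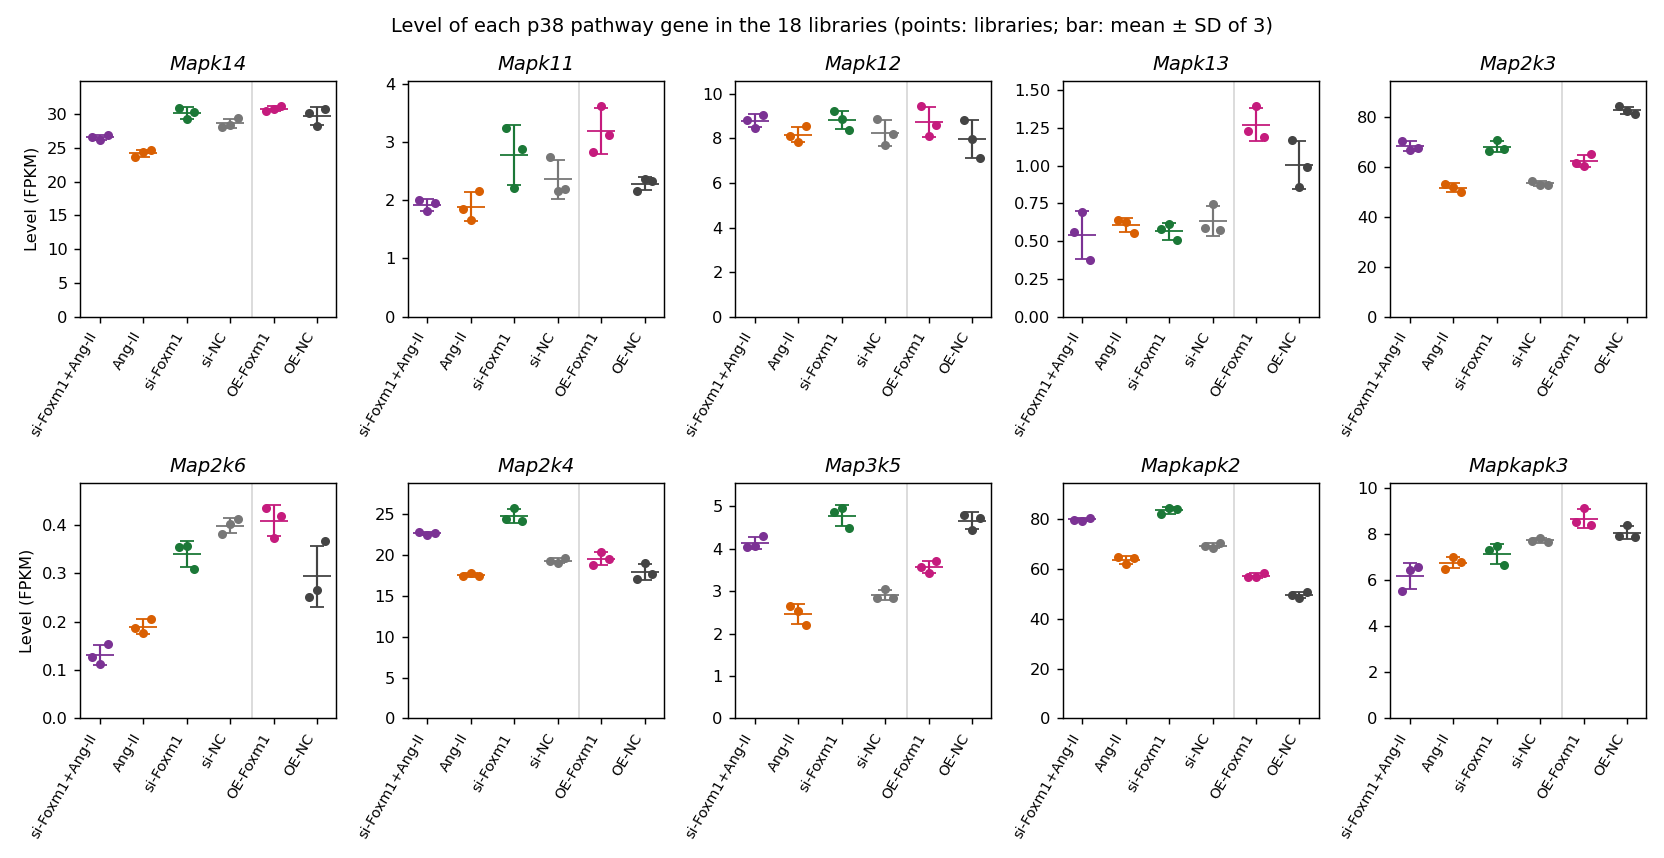
Level of each of the 10 genes in FPKM (y axes, each starting at 0) in the 6 groups (x axes). Points are libraries and bars the mean ± SD of 3, and the vertical line parts the knockdown arm from the overexpression arm. Map2k3, Map2k4, Map3k5 and Mapkapk2 sit higher in both siRNA groups than in their controls, and Map2k6 sits lowest in the groups with the hormone.

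Changes were tested with limma on log2(FPKM + 1) over all genes with a mean of at least 1 FPKM, and a gene was called at a Benjamini-Hochberg adjusted p under 0.05. In the knockdown arm 8 of the 10 members could be tested, and Mapk13 and Map2k6 lay under the minimum. With the siRNA and no hormone (si-Foxm1 against si-NC), 4 of 8 members rose, Map2k3, Map2k4, Map3k5 and Mapkapk2. This stands beside 48.5% of all 11180 tested genes called higher and 17.2% called lower. With the siRNA under the hormone (si-Foxm1+Ang-II against Ang-II), Mapk14 rose beside the same 4, making 5 of 8, beside 44.0% of genes called higher and 17.4% called lower. These 2 comparisons share no library. In both, 0 members fell by limma, 0 had an unadjusted p under 0.05 in that direction, and voom on recovered counts called 0 lower.

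The tested genes as a whole lay higher with the siRNA, with a median log2 fold change of 0.11 in si-Foxm1 against si-NC and 0.09 in si-Foxm1+Ang-II against Ang-II, so changes are also given relative to these medians. Median-of-ratios scaling, which removes the shift, left 2954 genes higher and 3273 lower in si-Foxm1 against si-NC in place of 5418 and 1924, and 3082 higher and 3116 lower in si-Foxm1+Ang-II against Ang-II in place of 4918 and 1942. Under that scaling 4 members were higher (Map2k3, Map2k4, Map3k5 and Mapkapk2) and 1 lower (Mapkapk3) in each of these comparisons. The median of the 8 tested members was 0.21 in si-Foxm1 against si-NC and 0.23 in si-Foxm1+Ang-II against Ang-II.

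With the hormone alone (Ang-II against si-NC), 5 of 8 members fell, Mapk14, Map2k4, Map3k5, Mapkapk2 and Mapkapk3, beside 29.2% of all tested genes called lower and 15.2% called higher. With the hormone in siRNA cells (si-Foxm1+Ang-II against si-Foxm1), 5 of 8 fell, Mapk14, Mapk11, Map2k4, Map3k5 and Mapkapk3, beside 34.6% called lower and 12.9% called higher. These 2 comparisons also share no library, whereas each shares libraries with both siRNA comparisons. Without Ang-II replicate 3, Ang-II against si-NC had 5 members lower as well, with Map3k5 lost and Mapk11 added, and si-Foxm1+Ang-II against Ang-II had the same 5 higher. No member rose by limma in either hormone comparison, 0 had an unadjusted p under 0.05 upwards, and voom called 0 higher. Median-of-ratios scaling left 3 and 2 members lower, and quantile normalization 3 and 1. Over all genes, scaling by median of ratios gave 2481 higher and 2424 lower in place of 1702 and 3268 in Ang-II against si-NC, and 2466 higher and 2267 lower in place of 1441 and 3873 in si-Foxm1+Ang-II against si-Foxm1. The median log2 fold change of the 8 members was -0.15 in each, against -0.03 and -0.07 for all tested genes.

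The siRNA effect with the hormone minus that without it, tested as an interaction, was called for 0 of 8 members, beside 0.921% of all tested genes. None had an unadjusted p under 0.05, voom called 0, and 0 were called without Ang-II replicate 3. The estimates ran from -0.14 ± 0.14 for Mapk11 to 0.06 ± 0.04 for Mapkapk2, with adjusted p of 0.486 to 0.987 by limma, which does not show that the effects were equal. For Map3k5, with an estimate of 0.0099 ± 0.08, the 95% interval of the difference was -0.16 to 0.18.

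In the overexpression arm 9 members could be tested, since Mapk13 reached the minimum there. Mapk11 and Mapkapk2 rose and Map2k3 and Map3k5 fell in OE-Foxm1 against OE-NC, 4 of 9, beside 27.1% of 11259 tested genes called higher and 28.0% called lower. The median log2 fold change was 0.12 for the 9 members and -0.0012 for all tested genes.

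**Figure D3:**
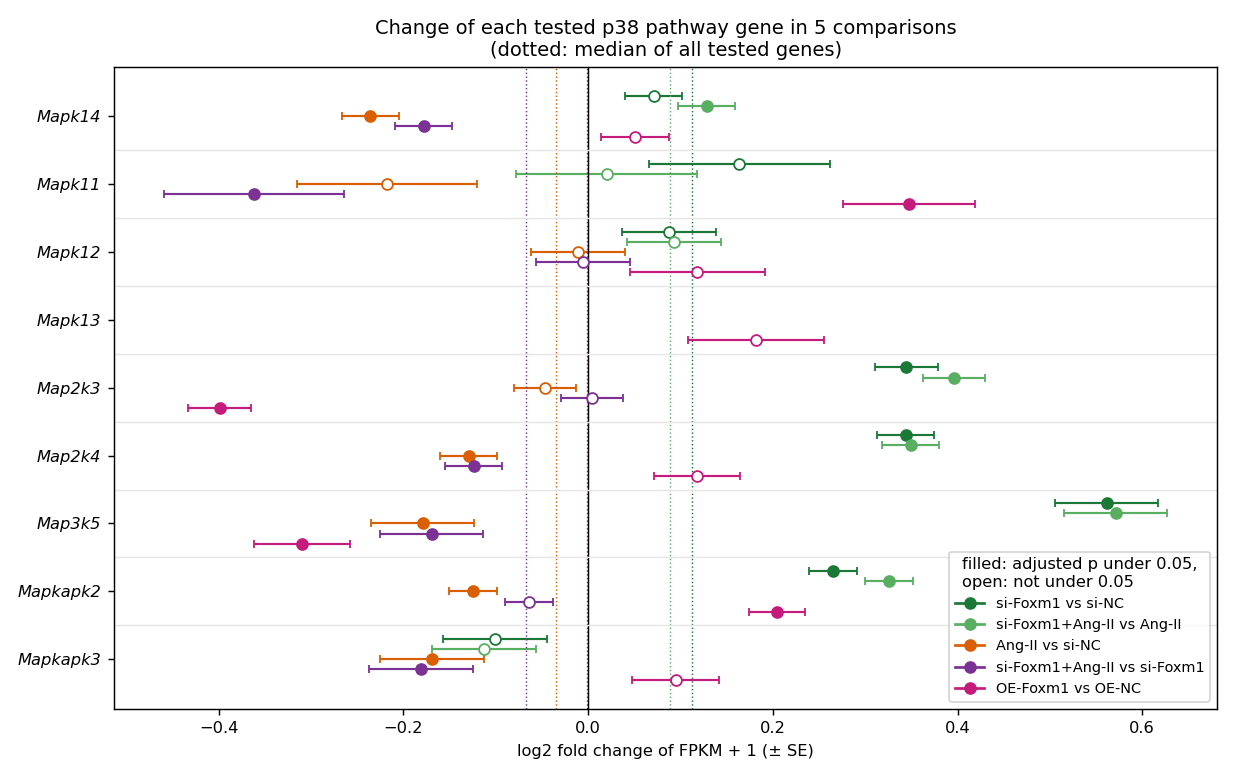
Log2 fold change of FPKM + 1 (x axis) with its SE for each tested gene (y axis) in 5 comparisons. Filled points have an adjusted p under 0.05 by limma, and dotted lines mark the median of all tested genes. Map2k3 and Map3k5 lie to the right in both siRNA comparisons and to the left in OE-Foxm1 against OE-NC, while Mapkapk2 lies to the right in all 3.

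Map3k5, which encodes ASK1, a MAP kinase kinase kinase held inactive by reduced thioredoxin and released by oxidative stress, had the largest siRNA change among the tested members. Its level was 4.05, 4.06 and 4.30 FPKM in si-Foxm1+Ang-II, against 2.65, 2.54 and 2.20 in Ang-II. Without the hormone it was 4.87, 4.96 and 4.49 FPKM in si-Foxm1, against 2.84, 3.05 and 2.85 in si-NC. Both siRNA groups lay wholly above their controls. Groups of 3 did not overlap, in either direction, for 64.5% of all tested genes with the hormone and 71.0% without it. In the hormone comparisons this share was 57.0% in siRNA cells and 52.9% in the others, and with overexpression 62.2%. Statements on overlap below are to be read beside these shares. On the log2(FPKM + 1) scale the rise was 0.57 ± 0.06 under the hormone (adjusted p = 1.42e-06) and 0.56 ± 0.06 without it (adjusted p = 1.52e-06), or 0.48 and 0.45 above the medians of all genes. The hormone gave smaller falls, -0.18 ± 0.06 in Ang-II against si-NC (adjusted p = 0.0184), with -0.17 ± 0.06 in si-Foxm1+Ang-II against si-Foxm1 (adjusted p = 0.0229). Median-of-ratios scaling ended both calls, at -0.14 (adjusted p = 0.0592) and -0.10 (adjusted p = 0.178), as did quantile normalization, at -0.09 (adjusted p = 0.254) and -0.06 (adjusted p = 0.423). The first was also lost without Ang-II replicate 3 (-0.12, adjusted p = 0.0792) or si-NC replicate 2 (-0.15, adjusted p = 0.0707). The second was lost without si-Foxm1 replicate 1 or 2 or si-Foxm1+Ang-II replicate 1 or 2, at adjusted p of 0.0670 to 0.0835.

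In the overexpression arm Map3k5 stood at 3.56, 3.43 and 3.71 FPKM in OE-Foxm1, against 4.81, 4.44 and 4.74 in OE-NC. The groups did not overlap, and the fall was -0.31 ± 0.05 (adjusted p = 5.75e-04). Ordered by level, si-Foxm1 and OE-NC came highest and overlapped, followed by si-Foxm1+Ang-II, OE-Foxm1, si-NC and Ang-II, which did not overlap with each other. The OE-NC level was thus nearer to that of si-Foxm1 than to that of si-NC, the control of the other arm.

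Map2k3, which encodes MKK3, an activator of p38 with little action on other MAP kinases, also rose with the siRNA and fell with overexpression. It reached 70.5, 67.0 and 67.5 FPKM in si-Foxm1+Ang-II, against 53.4, 52.0 and 49.8 in Ang-II. It reached 66.4, 70.7 and 67.4 FPKM in si-Foxm1, against 54.4, 52.9 and 53.0 in si-NC. The siRNA groups lay above their controls with no overlap, by 0.40 ± 0.03 (adjusted p = 3.72e-07) with the hormone and 0.34 ± 0.03 (adjusted p = 1.27e-06) without it, which is 0.31 and 0.23 above the medians of all genes. The hormone made no called difference, at -0.05 ± 0.03 in Ang-II against si-NC (adjusted p = 0.282), with 0.0041 ± 0.03 in si-Foxm1+Ang-II against si-Foxm1 (adjusted p = 0.932). Their 95% intervals were -0.12 to 0.03 and -0.07 to 0.08.

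OE-Foxm1 held 61.7, 60.5 and 65.3 FPKM of Map2k3, against 84.3, 82.4 and 81.2 in OE-NC. This was the largest fall of a member with overexpression, -0.40 ± 0.03 (adjusted p = 6.50e-06), and it was called under every alternative run, at -0.43 to -0.38. OE-NC was the highest of the 6 groups, above si-Foxm1 and si-Foxm1+Ang-II, which overlapped. Those came above OE-Foxm1, and si-NC and Ang-II, which overlapped, came lowest. Whether the changes of the 2 arms differ was not tested, since each arm had its own control and its own fit.

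Map2k4, which encodes MKK4, an activator of both JNK and p38, rose with the siRNA by a like amount. Its values were 22.8, 22.5 and 22.7 FPKM in si-Foxm1+Ang-II, against 17.5, 17.8 and 17.4 in Ang-II. They were 24.5, 25.8 and 24.1 FPKM in si-Foxm1, against 19.3, 19.0 and 19.6 in si-NC. The groups did not overlap, at 0.35 ± 0.03 (adjusted p = 5.60e-07) with the hormone and 0.34 ± 0.03 (adjusted p = 5.83e-07) without it. Relative to the medians of all genes the rises were 0.26 and 0.23. Map2k4 also fell with the hormone, at -0.13 ± 0.03 in Ang-II against si-NC (adjusted p = 0.00388), with -0.12 ± 0.03 in si-Foxm1+Ang-II against si-Foxm1 (adjusted p = 0.00475). The second of these calls was lost under both other scalings, at -0.05 by median of ratios (adjusted p = 0.259) and -0.07 by quantiles (adjusted p = 0.0871).

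Map2k4 held 18.7 to 20.3 FPKM in OE-Foxm1 and 17.1 to 19.0 in OE-NC, which overlapped, and the difference of 0.12 ± 0.05 missed the threshold narrowly (adjusted p = 0.0501). It was called under 8 of 15 alternatives, including voom on recovered counts (0.12, adjusted p = 0.0207) and quantile normalization (0.14, adjusted p = 0.0323). The level of Map2k3 relative to Map2k4 was 3.21 ± 0.201 in OE-Foxm1 and 4.62 ± 0.301 in OE-NC (SD, n = 3 each), and at most 3.10 in a library of the knockdown arm.

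Map2k6, which encodes MKK6, the other selective activator of p38, was scarce, at 28 to 105 fragments in a library. It had 0.13, 0.11 and 0.15 FPKM in si-Foxm1+Ang-II, against 0.19, 0.18 and 0.21 in Ang-II. Without the hormone it had 0.36, 0.36 and 0.31 FPKM in si-Foxm1, against 0.38, 0.40 and 0.41 in si-NC. The groups of 3 did not overlap in any of the 4 comparisons of this arm or in OE-Foxm1 against OE-NC. Such separation was found for 64.5% of tested genes in si-Foxm1+Ang-II against Ang-II, 71.0% in si-Foxm1 against si-NC, 52.9% in Ang-II against si-NC, 57.0% in si-Foxm1+Ang-II against si-Foxm1 and 62.2% in OE-Foxm1 against OE-NC.

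Since Map2k6 was below the minimum, its changes come from alternatives that admit genes of at least 0.1 FPKM. Voom on recovered counts, chosen after the values were seen, gave -1.07 ± 0.15 in Ang-II against si-NC (adjusted p = 3.12e-06), with -1.37 ± 0.17 in si-Foxm1+Ang-II against si-Foxm1 (adjusted p = 7.11e-07), where 40.6% and 44.7% of 13672 genes were called. Limma on log2(FPKM + 1) called both as well, at -0.23 (adjusted p = 3.60e-04) and -0.24 (adjusted p = 2.42e-04), beside 39.8% and 43.3% of genes, on a scale that understates changes of scarce mRNAs. The mean level with the hormone was 0.387 times that without it in siRNA cells and 0.476 times in the other cells, which were the lowest ratios of mean FPKM of any member in these comparisons. The remaining changes depended on the test. In si-Foxm1+Ang-II against Ang-II voom gave -0.53 ± 0.19 (adjusted p = 0.0190, beside 55.4% of genes called) and limma -0.07 (adjusted p = 0.136, beside 54.1%). In si-Foxm1 against si-NC voom gave -0.23 ± 0.12 (adjusted p = 0.107, beside 59.6%) and limma -0.06 (adjusted p = 0.194, beside 58.3%). With no minimum level, limma called Map2k6 lower in both siRNA comparisons, at adjusted p of 0.0177 with the hormone (beside 42.0% of genes called) and 0.0347 without it (beside 45.7%). It then called both hormone comparisons too, at adjusted p of 1.46e-05 in siRNA cells (beside 33.1%) and 1.74e-05 in the others (beside 30.1%). In OE-Foxm1, which held 0.44, 0.37 and 0.42 FPKM against 0.25, 0.27 and 0.37 in OE-NC, voom gave 0.48 ± 0.15 (adjusted p = 0.0105, beside 51.3% of genes called) and limma 0.12 (adjusted p = 0.0884, beside 48.6%).

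Mapk14 was lower with the hormone and little moved by the siRNA. It stood at 26.6, 26.2 and 26.9 FPKM in si-Foxm1+Ang-II, against 30.9, 29.3 and 30.3 in si-Foxm1. It stood at 23.6, 24.3 and 24.6 FPKM in Ang-II, against 28.1, 28.5 and 29.4 in si-NC. The hormone groups lay wholly below those without it, at -0.18 ± 0.03 (adjusted p = 3.41e-04) with the siRNA and -0.24 ± 0.03 (adjusted p = 3.12e-05) without it, and both falls were called under every alternative run. The siRNA difference under the hormone was 0.13 ± 0.03 (adjusted p = 0.00262), or 0.04 above the median of all genes, and neither scaling left it called, with 0.03 by median of ratios (adjusted p = 0.410) and 0.05 by quantiles (adjusted p = 0.230). Without the hormone it was 0.07 ± 0.03 (adjusted p = 0.0578), which those scalings turned to -0.06 and -0.02. Overexpression left the groups overlapping, at 30.4 to 31.2 FPKM in OE-Foxm1 and 28.2 to 30.7 in OE-NC (0.05 ± 0.04, adjusted p = 0.269).

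Mapk11, a close relative of Mapk14 that binds the same inhibitors, was far less abundant, at 1.66 to 3.61 FPKM. It was 1.81 to 2.01 FPKM in si-Foxm1+Ang-II, against 2.21 to 3.24 in si-Foxm1, a fall of -0.36 ± 0.10 (adjusted p = 0.00769) that was not called under quantile normalization (-0.24, adjusted p = 0.0509). In Ang-II it was 1.66 to 2.16 FPKM, against 2.15 to 2.75 in si-NC, which overlapped (-0.22 ± 0.10, adjusted p = 0.0867), a difference called without Ang-II replicate 3 (-0.29 ± 0.10, adjusted p = 0.0377). It rose with overexpression, to 2.83, 3.61 and 3.12 FPKM in OE-Foxm1, against 2.16, 2.36 and 2.32 in OE-NC. That change was 0.35 ± 0.07 (adjusted p = 0.00205), without overlap and called under every alternative run.

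Mapk12 and Mapk13, the forms that bind fewer p38 inhibitors, showed no called change with all libraries kept. Without OE-NC replicate 1 limma called both higher with overexpression (Mapk12 0.19, adjusted p = 0.0466, and Mapk13 0.24, adjusted p = 0.0228). Without si-NC replicate 1 it called Mapk12 higher in si-Foxm1 against si-NC (0.13, adjusted p = 0.0378). Mapk12 spanned 7.11 to 9.44 FPKM over the 18 libraries, and its groups overlapped in each of the 5 comparisons. Its hormone differences were -0.01 in Ang-II against si-NC (adjusted p = 0.879), with -0.0056 in si-Foxm1+Ang-II against si-Foxm1 (adjusted p = 0.938), while its siRNA differences were 0.09 with and without the hormone (adjusted p = 0.127 and 0.145), close to the medians of all genes. Mapk13 had 0.37 to 0.75 FPKM in the knockdown arm, from 10 to 21 fragments a library. With a minimum of 0.1 FPKM its changes there were not called by limma (adjusted p = 0.442 to 0.853) or by voom (-0.20 to -0.05, SE 0.27 to 0.28, adjusted p = 0.567 to 0.915). It reached 1.23, 1.39 and 1.19 FPKM in OE-Foxm1, against 1.17, 0.86 and 0.99 in OE-NC, which did not overlap (0.18 ± 0.07, adjusted p = 0.0577).

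Mapkapk2, which encodes MK2, the kinase through which p38 stabilises cytokine mRNAs, was the most abundant member in each library of the knockdown arm. It held 79.7, 79.3 and 80.3 FPKM in si-Foxm1+Ang-II, against 64.5, 61.7 and 64.1 in Ang-II. It held 82.0, 84.4 and 84.0 FPKM in si-Foxm1, against 69.0, 68.5 and 70.3 in si-NC. The rises were 0.33 ± 0.03 with the hormone (adjusted p = 1.99e-07) and 0.27 ± 0.03 without it (adjusted p = 1.28e-06), or 0.24 and 0.15 above the medians of all genes. Unlike Map2k3 and Map3k5, it also rose with overexpression. OE-Foxm1 held 56.8, 56.6 and 58.4 FPKM, against 49.5, 48.5 and 50.7 in OE-NC, without overlap (0.20 ± 0.03, adjusted p = 2.61e-04). The hormone gave -0.12 ± 0.03 in Ang-II against si-NC (adjusted p = 0.00145), with -0.06 ± 0.03 in si-Foxm1+Ang-II against si-Foxm1 (adjusted p = 0.0551).

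Mapkapk3, which encodes MK3 and shares many substrates with MK2, differed from Mapkapk2 in its response to the siRNA. It was 5.54 to 6.56 FPKM in si-Foxm1+Ang-II, against 6.49 to 6.99 in Ang-II, which overlapped (-0.11 ± 0.06, adjusted p = 0.0987), and 6.65 to 7.46 in si-Foxm1, against 7.63 to 7.81 in si-NC, which did not (-0.10 ± 0.06, adjusted p = 0.131). Relative to the medians of all genes these were -0.20 and -0.21, and median-of-ratios scaling called both as falls (-0.20, adjusted p = 0.00942, and -0.22, adjusted p = 0.00584). The falls with the hormone were -0.17 ± 0.06 in Ang-II against si-NC (adjusted p = 0.0257), with -0.18 ± 0.06 in si-Foxm1+Ang-II against si-Foxm1 (adjusted p = 0.0173). That scaling ended both, at -0.13 (adjusted p = 0.0939) and -0.11 (adjusted p = 0.145). The first was lost on leaving out Ang-II replicate 1 or any 1 of the si-NC replicates (adjusted p = 0.0503 to 0.0931). The second was lost without si-Foxm1 replicate 1 or 2 or si-Foxm1+Ang-II replicate 1 (adjusted p = 0.0577 to 0.0834).

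Pearson correlations of log2(FPKM + 1) over all 18 libraries are given as a description, since the groups differed in depth and in cell type marker sums. Map2k3 and Map3k5 had the highest correlation of any pair of members, 0.907, followed by Map2k4 and Mapkapk2 at 0.813. Mapkapk2 and Mapk13 had the lowest, -0.754. Among 11236 genes with a mean of at least 1 FPKM, the 3 most like Map3k5 were Ctr9, Mtap and St3gal5 (0.979, 0.977 and 0.976). Set, Caprin1 and Trmt10c were most like Map2k3 (0.978, 0.978 and 0.976). Pbk, Rnaseh2b and Aurkb were most like Mapk14 (0.977, 0.973 and 0.961), and Epas1, Sema3f and Slc9a9 most like Map2k6 (0.957, 0.957 and 0.947). Mapk12 had no partner as close, with Cmc1 at 0.768, Ntan1 at 0.735 and Psenen at 0.689.

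**Figure D4:**
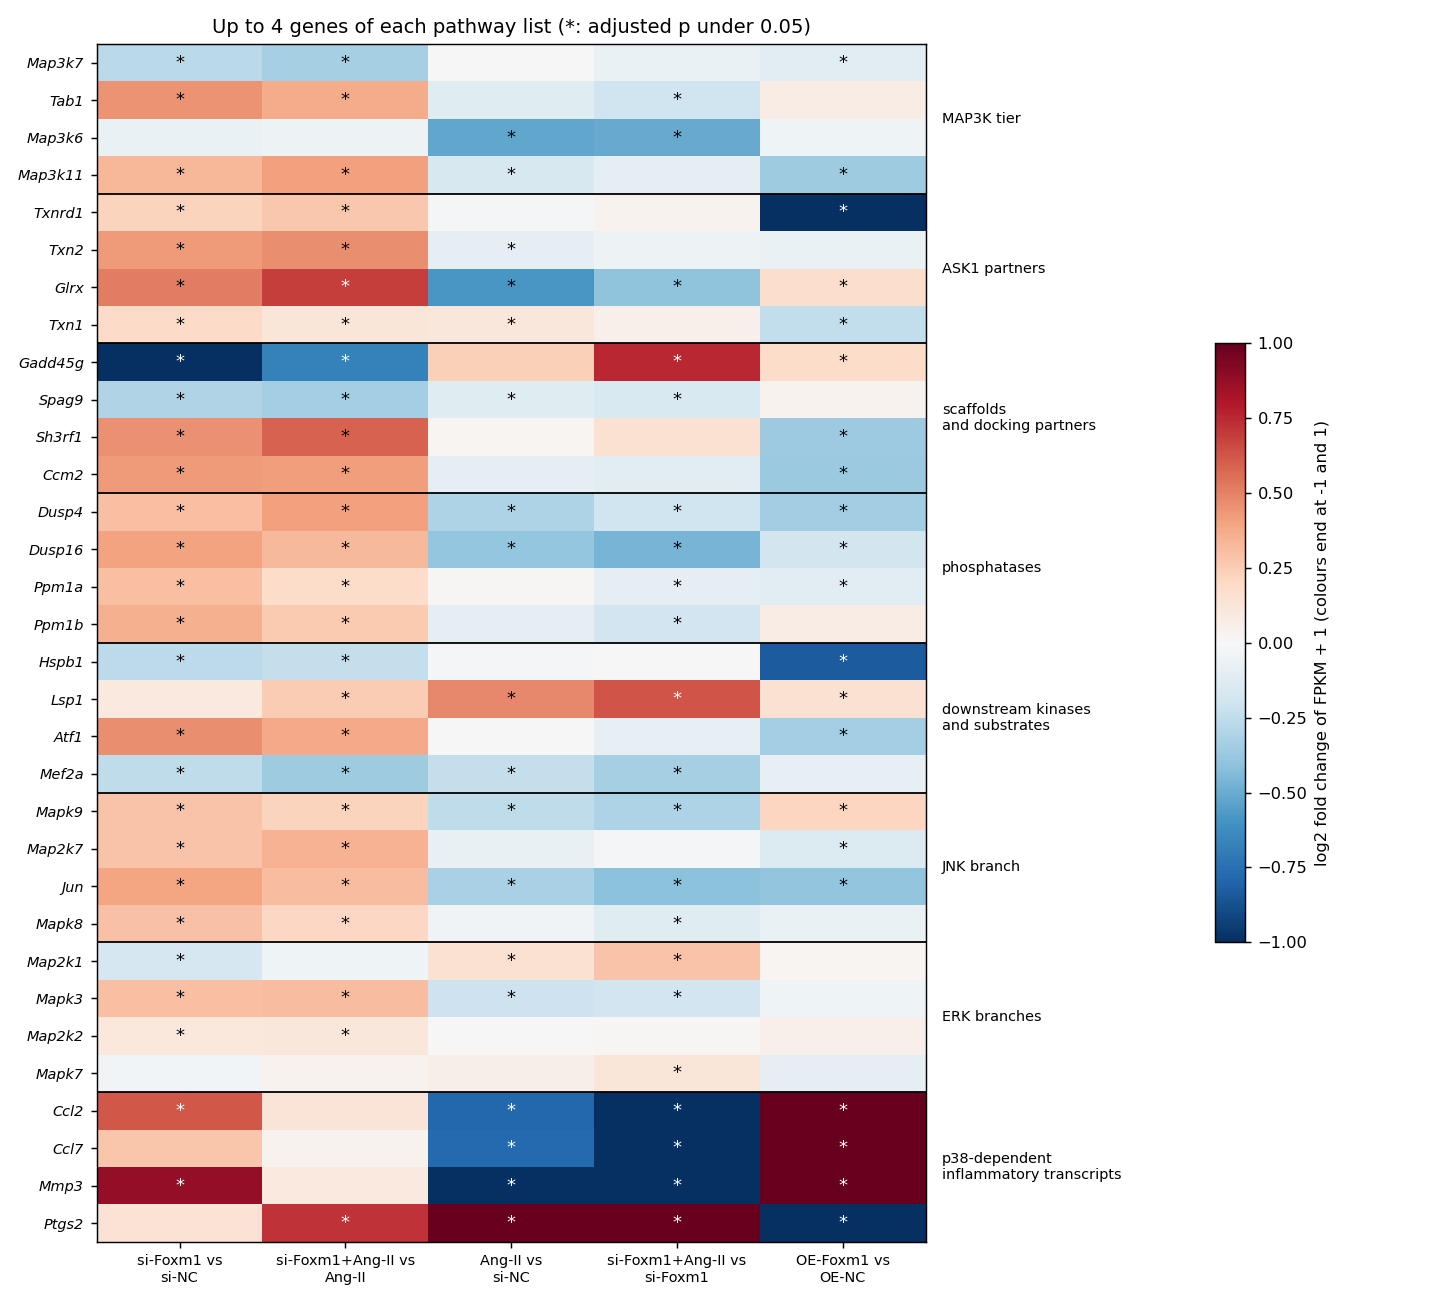
Log2 fold change of FPKM + 1 (colour) of up to 4 genes of each of 8 pathway lists (y axis) in 5 comparisons (x axis), with stars at an adjusted p under 0.05 by limma and colours ending at -1 and 1. The JNK branch is higher in both siRNA columns, and Ccl2, Ccl7 and Mmp3 have opposite colours in OE-Foxm1 against OE-NC and in the hormone comparisons.

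Other genes around the branch were grouped in 8 lists, whose named genes are the up to 4 with the smallest p in any comparison. Their counts are to be read beside the shares of all tested genes called higher and lower by limma. These were 44.0% and 17.4% in si-Foxm1+Ang-II against Ang-II and 48.5% and 17.2% in si-Foxm1 against si-NC. With the hormone they were 12.9% and 34.6% in siRNA cells and 15.2% and 29.2% in the others. With overexpression they were 27.1% and 28.0%. Among other kinases of the MAP3K tier and their adaptors, 16 of 20 could be tested. The siRNA raised 6 and lowered 5 in si-Foxm1+Ang-II against Ang-II and raised 7 and lowered 3 in si-Foxm1 against si-NC, splits that became 3 and 7, and 3 and 8, under median-of-ratios scaling. Their medians were -0.02 and 0.01, under the 0.09 and 0.11 of all genes. Map3k7, which encodes TAK1, the kinase that links cytokine and TGF-beta receptors to p38, fell with the siRNA (-0.33 ± 0.03, adjusted p = 1.19e-06, and -0.27 ± 0.03, adjusted p = 6.97e-06), while its partner Tab1 rose (0.37 ± 0.05, adjusted p = 2.02e-05, and 0.45 ± 0.05, adjusted p = 3.22e-06). The related adaptors did not rise: Tab2 was called lower in both siRNA comparisons and Tab3 in si-Foxm1+Ang-II against Ang-II. Map3k6, which encodes ASK2, the relative of ASK1, fell with the hormone. It had 1.79 to 2.30 FPKM in si-Foxm1+Ang-II, against 3.30 to 3.38 in si-Foxm1, and 2.03 to 2.34 in Ang-II, against 3.35 to 3.67 in si-NC. Its siRNA difference without the hormone was -0.06 ± 0.06 (adjusted p = 0.387), which median-of-ratios scaling called, at -0.16 (adjusted p = 0.0326). In the hormone comparisons the tier had 1 higher and 6 lower in siRNA cells and 1 higher and 4 lower in the others, which became 1 and 3, and 1 and 2, under that scaling. OE-Foxm1 had 1 higher and 8 lower than OE-NC, among them Map3k11 (-0.36 ± 0.05, adjusted p = 1.31e-04).

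Partners of ASK1, which hold it inactive or release it, were all 9 testable. In si-Foxm1+Ang-II against Ang-II 6 rose and 1 fell, and in si-Foxm1 against si-NC 5 rose and 2 fell (3 and 2 in each under median-of-ratios scaling). Of all tested genes 44.0% and 48.5% were called higher, and 17.4% and 17.2% lower. The list medians were 0.15 and 0.14, beside 0.09 and 0.11 for all genes. Glrx, which encodes glutaredoxin, stood at 13.0, 13.2 and 13.8 FPKM in si-Foxm1+Ang-II, against 7.30, 7.60 and 8.79 in Ang-II (0.69 ± 0.05, adjusted p = 1.38e-07), and rose by 0.51 ± 0.05 without the hormone (adjusted p = 2.17e-06). Txn2, the thioredoxin of mitochondria, rose by 0.47 ± 0.03 and 0.43 ± 0.03 (adjusted p = 6.64e-08 and 1.44e-07). Txnrd1, which encodes thioredoxin reductase, had the largest change of the list with overexpression. It held 65.6, 69.8 and 69.1 FPKM in OE-Foxm1, against 144.4, 140.5 and 137.7 in OE-NC (-1.04 ± 0.03, adjusted p = 7.40e-09), and 52.9 to 68.6 FPKM in the knockdown arm. Overexpression raised 2 of the 9 and lowered 3, beside 27.1% of all tested genes called higher and 28.0% called lower. With the hormone 0 rose and 3 fell in siRNA cells (0 higher at an unadjusted p under 0.05 or by voom, and 2 higher and 1 lower under median-of-ratios scaling). In the others it raised 1 and lowered 4.

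Scaffolds and docking partners, of which 8 of 9 were tested, had 2 higher and 4 lower in si-Foxm1+Ang-II against Ang-II and 3 higher and 4 lower in si-Foxm1 against si-NC. Of all tested genes 44.0% and 48.5% were called higher, and 17.4% and 17.2% lower. The list medians were -0.16 and -0.13, beside 0.09 and 0.11 for all genes. The largest siRNA change was that of Gadd45g, a stress protein that activates the MAP kinase kinase kinase MTK1. It held 56.1, 71.7 and 58.1 FPKM in si-Foxm1+Ang-II, against 96.2, 109 and 92.9 in Ang-II (-0.68 ± 0.10, adjusted p = 3.98e-05), and 37.0, 32.1 and 39.7 in si-Foxm1, against 80.7, 92.5 and 78.6 in si-NC (-1.19 ± 0.10, adjusted p = 2.13e-07). Ccm2, a scaffold of p38 signalling under osmotic stress, rose by 0.42 ± 0.04 and 0.43 ± 0.04 (adjusted p = 2.90e-06 and 2.33e-06) and fell in OE-Foxm1, at -0.37 ± 0.04 (adjusted p = 2.46e-05). With the hormone 2 rose and 3 fell in both siRNA and other cells, which became 4 and 1, and 3 and 2, under median-of-ratios scaling, and with overexpression 4 rose and 2 fell.

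Most of the tested phosphatases that inactivate MAP kinases rose with the siRNA. Of 7 tested among 13, 5 rose with the siRNA in each comparison, Dusp4, Dusp16, Ppm1a, Ppm1b and Ppm1d, with list medians of 0.26 with the hormone and 0.30 without it. Of all tested genes 44.0% and 48.5% were called higher, with medians of 0.09 and 0.11. Dusp1 fell under the hormone, a call lost without Ang-II replicate 3 (-0.15 ± 0.08, adjusted p = 0.113), and under median-of-ratios scaling the list had 4 rises and 1 fall there. Without the hormone 0 fell by limma, by voom or at an unadjusted p under 0.05, and 2 fell under median-of-ratios scaling. Dusp4, a nuclear phosphatase of ERK, JNK and p38, held 57.0 to 60.1 FPKM in si-Foxm1+Ang-II, against 41.9 to 45.1 in Ang-II (0.41 ± 0.04, adjusted p = 1.41e-06). It held 57.1 to 58.3 FPKM in OE-Foxm1, against 71.6 to 76.3 in OE-NC (-0.35 ± 0.03, adjusted p = 8.94e-06). With the hormone 5 of 7 fell in siRNA cells and 3 of 7 in the others, beside 34.6% and 29.2% of all tested genes, and both other scalings left 3 in each. Dusp16, which acts on JNK and p38, fell in both (-0.47 ± 0.05, adjusted p = 2.97e-06, and -0.39 ± 0.05, adjusted p = 1.38e-05). In those comparisons 0 rose by limma, by voom or at an unadjusted p under 0.05. With overexpression 1 of 9 rose and 6 fell, beside 27.1% of all tested genes called higher and 28.0% called lower.

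Kinases and substrates downstream of p38, with 20 of 20 tested, did not move together. There were 6 higher and 8 lower in si-Foxm1+Ang-II against Ang-II and 4 higher and 6 lower in si-Foxm1 against si-NC, which became 3 and 10, and 2 and 13, under median-of-ratios scaling. Of all tested genes 44.0% and 48.5% were called higher by limma, and 17.4% and 17.2% lower. The list medians were 0.0017 and -0.05, beside 0.09 and 0.11 for all genes. In the hormone comparisons 3 rose and 6 fell in siRNA cells and 2 rose and 7 fell in the others, which that scaling turned to 6 and 3, and 3 and 2. Atf1, a transcription factor of the CREB family, rose with the siRNA (0.38 ± 0.04, adjusted p = 1.70e-06, and 0.47 ± 0.04, adjusted p = 2.31e-07), and Mef2a, a muscle transcription factor that p38 phosphorylates, fell (-0.35 ± 0.03, adjusted p = 2.97e-07, and -0.25 ± 0.03, adjusted p = 5.74e-06). Hspb1, the small heat shock protein phosphorylated by MK2, held 83.6 to 93.9 FPKM in OE-Foxm1, against 150.3 to 167.3 in OE-NC (-0.83 ± 0.05, adjusted p = 5.03e-07). It fell with the siRNA too, by -0.24 ± 0.04 with the hormone (adjusted p = 9.69e-05) and -0.26 ± 0.04 without it (adjusted p = 3.70e-05). With overexpression 3 of 20 rose and 9 fell, beside 27.1% of all tested genes called higher and 28.0% called lower.

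The JNK branch, which shares Map2k4 with p38, had 4 of 5 genes tested. All 4 rose with the siRNA in both comparisons, under each scaling as well, with list medians of 0.27 with the hormone and 0.29 without it, beside the same 44.0% and 48.5% of all genes called higher and medians of 0.09 and 0.11. By limma, by voom and at an unadjusted p under 0.05, 0 fell. Mapk9 (JNK2) held 19.6 to 20.5 FPKM in si-Foxm1+Ang-II, against 16.7 to 17.4 in Ang-II (0.23 ± 0.03, adjusted p = 3.93e-05). It held 25.1 to 25.3 FPKM in si-Foxm1, against 20.05 to 21.25 in si-NC (0.28 ± 0.03, adjusted p = 5.12e-06). The target Jun rose by 0.31 ± 0.07 (adjusted p = 0.00169) and 0.39 ± 0.07 (adjusted p = 2.25e-04). With the hormone 3 of 4 fell in siRNA cells and 2 in the others, with 0 higher by limma, by voom or at an unadjusted p under 0.05, and with overexpression 1 rose (Mapk9) and 2 fell (Map2k7 and Jun). The ERK branches, with 6 tested, had 2 higher and 0 lower in si-Foxm1+Ang-II against Ang-II (0 lower at an unadjusted p under 0.05 or by voom, and 1 under median-of-ratios scaling). In si-Foxm1 against si-NC they had 2 higher and 1 lower, which that scaling turned to 1 and 4. Map2k1 (MEK1) rose with the hormone (0.28 ± 0.03 in siRNA cells, adjusted p = 9.57e-06, and 0.15 ± 0.03 in the others, adjusted p = 0.00149), where Mapk3 (ERK1) fell (-0.20 ± 0.05, adjusted p = 0.00461, and -0.21 ± 0.05, adjusted p = 0.00320). The Mapk3 fall in siRNA cells was lost under median-of-ratios scaling (-0.11, adjusted p = 0.0527). With overexpression 0 of 6 were called by limma or by voom, and 0 had an unadjusted p under 0.05.

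Transcripts that p38 and MK2 are known to stabilise or induce in inflammation moved in opposite directions among themselves, with 8 of 14 tested in the knockdown arm and 9 in the other. The hormone raised 4, Il6, Ptgs2, Ier3 and Lif, in each of its comparisons, and lowered Ccl2, Ccl7 and Mmp3 in both and Fos in siRNA cells. Ptgs2, the inducible cyclooxygenase, held 7.78, 8.11 and 7.63 FPKM in si-Foxm1+Ang-II, against 2.06, 1.44 and 1.57 in si-Foxm1 (1.72 ± 0.14, adjusted p = 5.73e-07), and 5.38, 5.12 and 2.91 in Ang-II, against 1.31, 1.44 and 1.505 in si-NC (1.15 ± 0.14, adjusted p = 1.86e-05). Ccl2, a chemokine that attracts monocytes, held 16.2, 15.4 and 14.3 FPKM in si-Foxm1+Ang-II, against 37.9, 39.7 and 37.9 in si-Foxm1 (-1.28 ± 0.12, adjusted p = 1.56e-06). In the overexpression arm both changes had the opposite sign. OE-Foxm1 held 146.1, 134.9 and 169.9 FPKM of Ccl2, against 25.2, 27.3 and 27.0 in OE-NC (2.45 ± 0.07, adjusted p = 4.22e-09), and 1.31, 1.27 and 1.75 FPKM of Ptgs2, against 11.4, 10.1 and 9.74 in OE-NC (-2.23 ± 0.08, adjusted p = 1.76e-08). Of the 9 tested, 6 rose and 1 fell there, with a list median of 0.45. Of all tested genes 27.1% were called higher and 28.0% lower there, with a median of -0.0012. The siRNA without the hormone raised Ccl2 (0.62 ± 0.12, adjusted p = 4.11e-04), Mmp3 (0.88 ± 0.17, adjusted p = 4.34e-04) and Fos and lowered Ier3, so that Ccl2 and Mmp3 rose both with the siRNA and with overexpression. Under the hormone the siRNA raised Ptgs2 (0.73 ± 0.14, adjusted p = 5.66e-04) and Lif, and 0 fell by limma, by voom or at an unadjusted p under 0.05 (1 higher and 1 lower under median-of-ratios scaling). That count depended on Ang-II replicate 3, which stood apart in this list, with 18.5 FPKM of Ccl2 against 11.9 and 12.1, and 1.74 of Mmp3 against 0.706 and 0.609. Without it 4 rose (Ptgs2, Ccl2, Fos and Mmp3) and Ier3 fell in si-Foxm1+Ang-II against Ang-II, with Ccl2 at 0.33 ± 0.06 (adjusted p = 2.97e-04), while the 4 rises and 3 falls of Ang-II against si-NC stayed called.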

How the data were processed

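RNA from 18 samples was sequenced as stranded mRNA libraries, per the labels' protocols. The submitters' processing notes name fastp, HISAT2, HTSeq and the build mm39. Versions, annotation and gene lengths were not found in those notes, the labels or the file header. The authors deposited FPKM values, in a single table with gene symbols, and 0 of its columns lacked a sample.

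Fragment counts, gene lengths and library totals were derived from the steps between FPKM values, and each of the 17960 genes above 0 came out at whole numbers within 0.02 (100% of values). Groups and replicate numbers came from the labels. In R 4.3.3 with limma 3.58.1, log2(FPKM + 1) was fitted with eBayes and a mean-variance trend, once over the 12 knockdown libraries and once over the 6 overexpression libraries, with no further scaling. Tables were made in Python 3.11.15 with pandas 2.3.3. Genes with a mean of at least 1 FPKM were tested and p-values adjusted by Benjamini-Hochberg over all of them. Fold changes are on the log2(FPKM + 1) scale, ± SE, 3 libraries against 3, which understates changes of low genes. The scripts were tested on simulated data.

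Alternatives were a pseudocount of 0.1, a minimum of 0.1 FPKM or none, median-of-ratios and quantile scaling, a fit of just the compared groups or of all 6 together, a replicate block, voom on recovered counts, and each library left out. Voom with a minimum of 0.1 FPKM was chosen after seeing the data. Named genes were the 10 members, Foxm1, up to 4 genes of smallest p per list and the 3 genes most like each of 5 members. Other genes that the text names were singled out after their values were seen. The members and lists were chosen with earlier results of these data known.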

Additional observations from a re-analysis of the deposited data

Results flagged for a closer look

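Gadd45a, a stress-induced activator of the MAP3K tier, was the only gene among the 78 tested of 96 pathway genes whose siRNA effect differed with the hormone by the interaction test. The difference was -0.48 ± 0.10 (adjusted p = 0.0422 by limma), and 15 of the 78 had an unadjusted p under 0.05. Of all 11180 tested genes 0.921% were called and 14.3% had an unadjusted p under 0.05. Gadd45a held 21.9, 21.2 and 21.7 FPKM in si-Foxm1+Ang-II, against 22.7, 24.0 and 24.8 in Ang-II (-0.13 ± 0.07, adjusted p = 0.117). Without the hormone it held 19.0, 22.4 and 17.8 FPKM in si-Foxm1, against 16.1, 15.9 and 13.8 in si-NC (0.35 ± 0.07, adjusted p = 7.62e-04). Over 21 alternatives the difference ran from -0.55 to -0.39 with adjusted p of 0.0115 to 0.110, and 10 of them called it. Voom called 2 of the 78. Without Ang-II replicate 3 Glrx was called as well (0.25 ± 0.06, adjusted p = 0.0415). The gene is named because it passed this test, after its values were seen.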

How the results depend on the processing

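The siRNA rises of Map2k3, Map2k4, Map3k5 and Mapkapk2, the hormone falls of Mapk14 and the overexpression changes of Mapk11, Map2k3, Map3k5 and Mapkapk2 kept their direction and their call under each alternative run. Of 1150 recomputed values, 1039 were classed as unchanged, where counts of genes and isoform shares were allowed a margin. Among the members' fold changes 725 kept direction and side of the threshold. A further 40 changed sign, 23 became called and 26 lost their call. Fewer members fell under other scalings: 3 under median-of-ratios and 3 under quantile normalization in Ang-II against si-NC, and 2 and 1 in si-Foxm1+Ang-II against si-Foxm1. Leaving out 1 library gave 3 to 5 in each of these, with 3 without si-NC replicate 2 in the first and without si-Foxm1 replicate 1 or 2 or si-Foxm1+Ang-II replicate 1 in the second. The interaction called 103 genes of all tested, 169 with all 6 groups in 1 fit, 57 without the minimum level, 229 with voom, 234 with voom at 0.1 FPKM, and 37 to 196 with 1 library left out (the highest without Ang-II replicate 3, the lowest without si-Foxm1+Ang-II replicate 2). The cause of these differences was not tested.

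Small uncalled differences changed sign. Median-of-ratios scaling and quantile normalization gave -0.0554 and -0.0153 for Mapk14 and -0.0291 and -0.0252 for Mapk12 in si-Foxm1 against si-NC, and -0.0452 and -0.0562 for Mapk11 in si-Foxm1+Ang-II against Ang-II, where quantile normalization gave -0.0061 for Mapk12. They gave 0.0341 and 0.0464 for Mapk12 in Ang-II against si-NC, 0.0675 and 0.0654 for Mapk12 in si-Foxm1+Ang-II against si-Foxm1, and 0.0159 and 0.0267 for the Mapkapk3 interaction. Median-of-ratios scaling alone gave 0.0029 for Map2k3 in Ang-II against si-NC and 0.0165 for Mapkapk2 in si-Foxm1+Ang-II against si-Foxm1. With 1 library left out, Mapk12 ran from -0.0535 to 0.0355 in Ang-II against si-NC and from -0.0384 to 0.0225 in si-Foxm1+Ang-II against si-Foxm1, where Map2k3 ran from -0.0181 to 0.0302, and Mapk11 ran from -0.0371 to 0.0873 in si-Foxm1+Ang-II against Ang-II. Values of the interaction ran from -0.0128 to 0.0323 for Map2k4, -0.0462 to 0.0488 for Map3k5, -0.0411 to 0.0479 for Mapk12 and -0.055 to 0.0548 for Mapkapk3.

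Libraries of the same replicate number had correlated deviations of -0.041 to 0.175 in the knockdown arm and 0.016 to 0.101 in the other. Those of different numbers had -0.157 to 0.125 and -0.083 to 0.036. Within the knockdown arm the pairs of replicate 2 were all positive, at 0.037 to 0.175. The pairs of replicate 1 ran from -0.041 to 0.112 and those of replicate 3 from -0.009 to 0.12. The labels give no pairing, and whether libraries of the same number share a batch was not tested. With the replicate number as a block, 4 members were called in si-Foxm1 against si-NC, 5 in si-Foxm1+Ang-II against Ang-II, 6 in Ang-II against si-NC (Mapk11 added, adjusted p = 0.0331), 5 in si-Foxm1+Ang-II against si-Foxm1, 5 in OE-Foxm1 against OE-NC (Map2k4 added, adjusted p = 0.0186) and 0 in the interaction. Depth limits the precision for Mapk13 and Map2k6, at 10 to 105 fragments a library.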
